A study of Mus musculus with 4 samples.

Results

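The 5-methylcytosine (5mC) sites that the authors list as differing between Hdac6-knockout and wild-type LSK cells were taken whole: every entry of the deposited 5mC comparison was a member, 53206 sites of the 125070 listed for both marks of the series. The name LSK stands for cells without lineage markers (Lin-) that carry much Sca-1 as well as c-Kit; in mouse bone marrow they include haematopoietic stem cells and early progenitors. Wild-type (WT) and HDAC6 KO mice were compared with 1 whole-genome bisulfite library per genotype that carries the 5mC label. A further library per genotype, oxidative bisulfite, carries the 5hmC label, so the series holds 4 libraries. Which libraries entered each level is not stated in the sources used here. The sources used here give neither the allele nor any promoter or Cre, and no strain, sex, age or number of pooled animals. A table of selected methylation sites holds no expression values, so the sorted cell type could not be checked against its markers. Hdac6 itself held 2 listed sites, both lower, at 100% and 0% at chrX:7940288; methylation does not show whether its product was lost, so the genotype labels could not be checked either.

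DNA methyltransferases place 5mC almost wholly on cytosines followed by guanine (CpG), where it is copied at each cell division, and TET enzymes oxidise it to 5-hydroxymethylcytosine (5hmC). Most CpGs of a mammalian genome are highly methylated, while CpG-rich gene starts are mostly unmethylated; at imprinted genes only the copy from the mother or from the father is methylated. In blood formation, DNMT3A and TET2 are known regulators of stem cell self-renewal. HDAC6 is a mainly cytoplasmic deacetylase of tubulin and other proteins.

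Each site has a WT level and a knockout level, deposited by the authors as fractions and printed here as percent; a difference is knockout minus wild type in percentage points. Listed sites were 0.316% of the 16859670 cytosines that the authors tested, a total recovered from their deposited p-values and q-values; 0.127% were listed as higher in the knockout and 0.188% as lower. All listed sites have a p under 0.01 and a difference of at least 10 points in the authors' deposited table, so a site without a difference cannot be a member and the list does not describe the whole methylome. A q under 0.05 was reached by 93 listed sites (0.175%) in the authors' deposited table. Of these, 52 were on chromosome X, which held 2.67% of listed sites. With 1 library per genotype no difference has a replicate check, no test of genotype was made, and the number of reads behind each level is unknown. Intervals below are exact 95% binomial intervals over sites; they cover counting error only and say nothing of the spread between animals.

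Stretches of DNA around 5 gene starts show what the listed sites look like in sequence. They are the RefSeq GRCm38.p6 promoter windows with most listed sites, 250 bases before to 50 after an annotated start, written 5′ to 3′ on the strand of the gene, with listed CpGs in capitals and all other bases in lower case. Vkorc1l1 encodes a vitamin K epoxide reductase, Kif2b a microtubule-depolymerising kinesin, Fggy a carbohydrate kinase and Clcn4 a chloride/proton exchanger; Gm15609 is a gene model without an assigned role.
Vkorc1l1, chr5:129941859-129942158, + strand: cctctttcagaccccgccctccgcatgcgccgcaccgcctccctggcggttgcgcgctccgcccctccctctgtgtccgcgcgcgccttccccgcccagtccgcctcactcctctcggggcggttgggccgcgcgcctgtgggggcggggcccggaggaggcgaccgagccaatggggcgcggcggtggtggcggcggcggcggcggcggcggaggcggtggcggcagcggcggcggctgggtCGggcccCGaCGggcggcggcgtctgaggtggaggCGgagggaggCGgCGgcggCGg
Clcn4, chr7:7299508-7299807, - strand: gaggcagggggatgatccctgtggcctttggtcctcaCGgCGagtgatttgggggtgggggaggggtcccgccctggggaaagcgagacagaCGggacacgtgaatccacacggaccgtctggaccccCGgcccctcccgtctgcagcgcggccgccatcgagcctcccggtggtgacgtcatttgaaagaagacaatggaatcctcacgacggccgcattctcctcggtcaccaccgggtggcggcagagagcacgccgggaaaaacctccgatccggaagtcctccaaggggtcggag
Kif2b, chr11:91577506-91577805, - strand: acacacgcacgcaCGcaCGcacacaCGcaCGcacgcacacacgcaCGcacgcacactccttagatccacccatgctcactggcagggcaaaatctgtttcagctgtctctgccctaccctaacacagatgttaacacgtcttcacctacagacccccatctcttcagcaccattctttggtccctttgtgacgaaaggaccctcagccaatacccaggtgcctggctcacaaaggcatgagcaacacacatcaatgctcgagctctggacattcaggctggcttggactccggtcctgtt
Fggy, chr4:95557257-95557556, + strand: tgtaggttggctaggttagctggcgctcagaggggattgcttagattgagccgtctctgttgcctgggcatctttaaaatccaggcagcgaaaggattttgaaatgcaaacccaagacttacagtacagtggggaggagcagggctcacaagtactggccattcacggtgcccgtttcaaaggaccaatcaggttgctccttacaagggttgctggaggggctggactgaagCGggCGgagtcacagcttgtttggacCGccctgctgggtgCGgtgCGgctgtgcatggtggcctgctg
Gm15609, chr15:89523701-89524000, - strand: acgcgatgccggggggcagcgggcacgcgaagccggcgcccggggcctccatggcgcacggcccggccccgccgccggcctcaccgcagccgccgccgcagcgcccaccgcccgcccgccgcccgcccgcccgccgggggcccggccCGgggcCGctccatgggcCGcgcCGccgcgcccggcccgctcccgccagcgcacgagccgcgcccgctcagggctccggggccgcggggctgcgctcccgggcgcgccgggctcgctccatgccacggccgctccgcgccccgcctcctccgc
Of the 50 CpGs in the Vkorc1l1 window 7 were listed, all higher in the knockout, with WT levels of 3.12 to 13.6% and knockout levels of 33.3 to 59.3%. The 4 listed sites of 27 CpGs at Clcn4 were also higher, at 38.1 to 50.5% and 67.4 to 72.3%. At Kif2b 5 of 14 CpGs were lower, at 90.2 to 98.3% and 68.8 to 84.6%. At Fggy 5 of 10 CpGs were lower, from WT levels of 17.1 to 22.2% to 0% at all 5; the start of Gm40206, on the other strand, shares these sites. At Gm15609 4 of 59 CpGs were lower, at 76.9 to 78.6% and 34.1 to 46.8%. In all 5 windows the levels of the genotypes did not overlap, and q was 1 at every one of these sites in the authors' deposited table. Listed sites differ by at least 10 points by selection and the windows were picked for holding most of them. The separation is therefore in part set by the choice of sites.

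Starting level and direction went together. Sites were placed into 5 classes of 20 points by WT level. Of the 4219 sites under 20% in wild type, 94.4% were higher in the knockout (interval 93.7 to 95.1%). The share higher was 84.7% of 4564 sites at 20 to 40%, 80.01% of 6058 at 40 to 60% and 70.7% of 9076 at 60 to 80%. Of the 29289 sites at 80% or more, 8.04% were higher (interval 7.73 to 8.36%), against 40.3% of all listed sites; the other 59.7% of the list were lower. The order is partly set by arithmetic: a site at 80% can rise by at most 20 points, and listing needs 10. Classed by knockout level instead, the order turned round, with 5.35% higher under 20% and 86.5% higher at 80% or more. Classed by the mean of both levels, which favours neither genotype, 55.3% were higher under 20%, 54.2% at 20 to 40%, 45.1% at 40 to 60%, 35.1% at 60 to 80% and 39.4% at 80% or more.

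**Figure D1:**
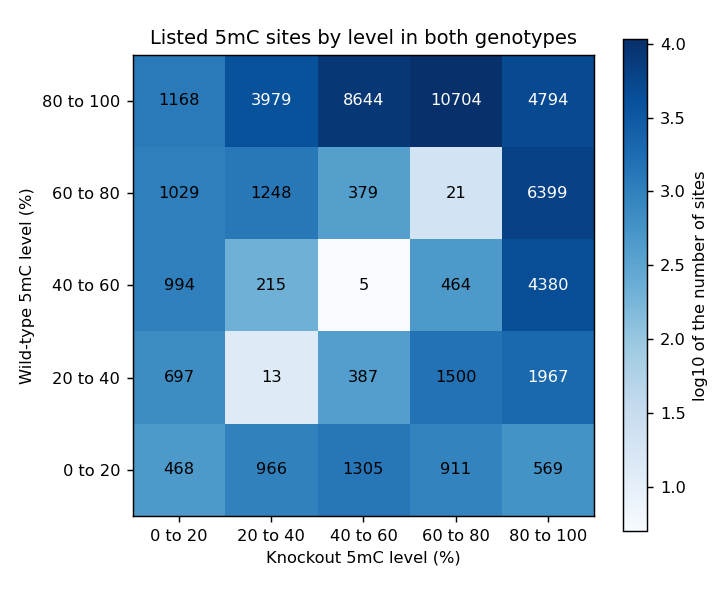
Number of listed 5mC sites in each combination of wild-type level class (vertical axis, percent) and knockout level class (horizontal axis, percent), 1 library per genotype; colour is log10 of the number. The fullest cell, 10704 sites, is at 80 to 100% in wild type and 60 to 80% in the knockout, and the diagonal is nearly empty between 20 and 80%, with 13, 5 and 21 sites; listed sites differ by at least 10 points.

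The most frequent change was a partial loss at highly methylated sites. A WT level of 80% or more combined with a knockout level of 60 to 80% at 10704 sites, 20.1% of the list, and with 40 to 60% at 8644 sites. The most frequent gain led from 60 to 80% up to 80% or more, at 6399 sites, followed by 4380 sites from 40 to 60%. Both genotypes stayed at or above 50% at 56.9% of sites, and both under 50% at 6.10%. Near-complete switches were rare: 1168 sites went from at least 80% to under 20%, and 569 from under 20% to at least 80%. Within 4 Mb of Hdac6 on chromosome X, 96 of 220 sites made the first switch and 2 the second, whereas on chromosome 17 from 24 to 52 Mb 5 of 1578 sites made the first and 34 the second. Outside both stretches the shares were 2.08% and 1.04% of 51408 sites.

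Wild type stood at exactly 100% at 27.5% of listed sites, and the knockout at 14.4%. Among lower sites 46.1% started from 100% in wild type, and among higher sites 35.8% ended at 100% in the knockout. A level of exactly 0 was rarer, at 1.98% of sites in wild type and 2.89% in the knockout. A level at either end of the scale can come from few reads, and its part in the differences was not tested.

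Larger differences were more often losses. Among sites that differed by 10 to 20 points, 51.7% of 6259 were higher in the knockout (interval 50.4 to 52.9%). The share fell to 43.1% of 12054 sites at 20 to 30 points, 39.0% of 8800 at 40 to 50 and 30.7% of 3802 at 60 to 70, and was 21.6% of 282 at 90 points or more (interval 16.97 to 26.9%). These shares were not computed without chromosome X or the stretch around Hdac6. Lower sites on chromosomes X and Y fell by a median of 50 points each, against 37.6 over the whole list. Within 4 Mb of Hdac6 36 of 220 sites were higher (16.4%). Differences of at least 50 points made up 25.4% of the list. The middle range of absolute differences ran from 26.1 to 50 points, and the median deposited p fell from 0.00620 at 10 to 20 points to 0.000500 at 90 or more in the authors' deposited table. Large differences also lay farther from genes: 17.4% of sites that differed by 10 to 20 points were near a gene end and 41.9% between genes, against 8.24% and 57.0% of those with 90 points or more.

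Listed sites were sparse, and direction was shared mostly over short distances. Adjacent listed sites lay a median of 24119 bp apart (quartiles 7604 and 60946 bp). Of 650 pairs 2 to 10 bp apart, 98.9% changed in the same direction, and of 1417 pairs 11 to 100 bp apart, 92.6% (interval 91.1 to 93.9%). The share was 60.4% of 2314 pairs over 100 and up to 1000 bp apart, 54.7% of 11425 up to 10000 bp and 53.2% of 37342 beyond that. With p under 0.001 in the authors' deposited table, these shares were 72.3%, 69.9% and 55.0%. Independent directions with the overall split of all listed sites would give 51.9%. CpGs this close can be read on the same DNA fragments, so neighbouring sites are not independent measurements.

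**Figure D2:**
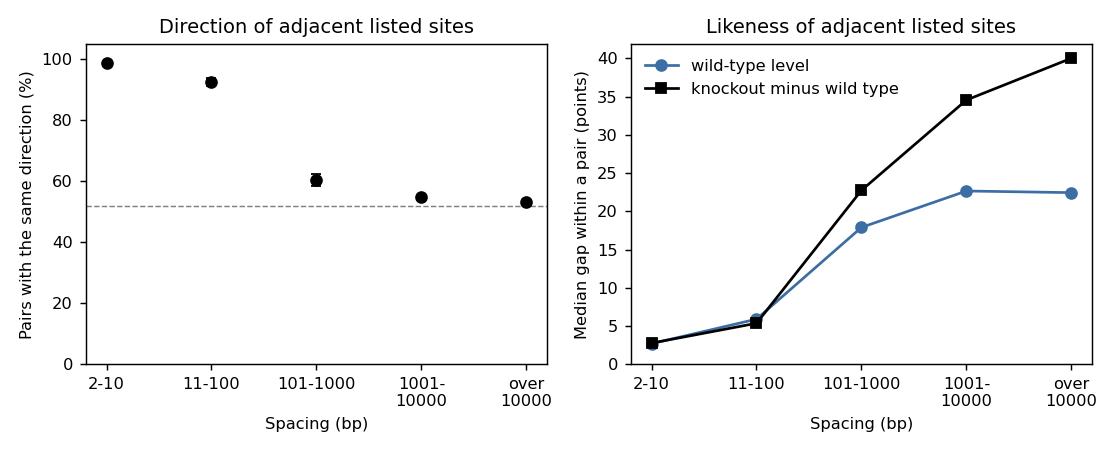
Left, share of adjacent listed 5mC sites with the same direction (percent, bars are 95% binomial intervals) by spacing in bp; the dashed line is the 51.9% given by independent directions. Right, median gap within a pair in points, for the wild-type level and for the difference. Over all listed sites, both readings show likeness up to 100 bp that is mostly gone beyond 1000 bp.

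Within pairs up to 10 bp apart, WT levels differed by a median of 2.70 points and the differences by 2.77 points. At 11 to 100 bp these gaps were 5.90 and 5.36 points, and from there to 1000 bp 17.9 and 22.7 points. Across pairs, which share libraries and often reads, Pearson's r between the differences of both sites was 0.98 at 2 to 10 bp, 0.85 at 11 to 100 bp, 0.21 from there to 1000 bp and 0.03 beyond 10000 bp. Among pairs with both WT levels from 20 to 80%, the share with the same direction was 99.7%, 96.9%, 74.5%, 67.4% and 65.6% over the 5 spacings; independent directions with the split of these sites would give 64.4%.

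Sites with close neighbours were more often higher in the knockout. When sites at most 100 bp apart were joined to a locus, 39.5% of the 49705 loci with a single site were higher. Of 1147 loci with 2 sites 42.7% had both higher, of 167 with 3 sites 52.1% had all higher, and of 60 with 4 sites 60%. Of the 60 loci with 5 or more sites, 41 were higher throughout, 18 lower throughout and 1 mixed. The higher loci had a median WT level of 40.2% and a median knockout level of 65.9%, and the lower loci 79.9% and 30.4%. Of the 41 higher loci 13 held a site near a gene end, of the 18 lower loci 4. Sites with a listed neighbour within 10 bp also had a lower median WT level, 61.4%, against 87.9% for sites with none within 10000 bp, and its part in the count was not tested.

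Loci inside genes with many sites are named here after their values were seen; the largest locus of all, 24 higher sites, lay between genes on chromosome Y. Mpp7, which encodes a scaffold protein of cell junctions, held 21 sites within 121 bp, with a mean WT level of 16.1% and a mean knockout level of 30.3%. In Dmd, the dystrophin gene, 17 sites within 151 bp (chrX:83848076-83848226) averaged 78.7% and 96.5%, and the smallest q was 2.22e-05 in the authors' deposited table. At chr7:143295628-143295770, inside Kcnq1 and its antisense imprinted RNA gene Kcnq1ot1, 15 sites averaged 38.2% and 66.2%. Lower loci with 10 or more sites inside genes were in Rasa2, a Ras GTPase-activating gene (14 sites at chr9:96544180-96544337, 43.3% and 0%), and in Rgs9, a regulator of G-protein signalling (10 sites at chr11:109288664-109288714, 75.8% and 37.2%). Ablim1, an actin-binding LIM protein gene, held 7 sites within 15 bp at 82.9% and 11.6%.

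Direction differed by gene context, and the order depended on which level the sites were matched on. A gene end was taken as within 2000 bp of either end of a gene; 8178 sites lay there, 21906 deeper inside genes and 22902 between genes. Matched on the mean of both levels, gene ends had more higher sites than the space between genes: 61.9% of 1027 against 48.3% of 1433 at 20 to 40%, 54.1% of 1360 against 40.02% of 3441 at 40 to 60%, and 43.0% of 2573 against 34.0% of 9331 at 60 to 80%. At 80% or more the shares were 40.7% (interval 38.7 to 42.7%) and 39.5% (38.5 to 40.6%), which overlap. Sites inside genes lay between both at 20 to 60% and near the intergenic share above that.

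**Figure D3:**
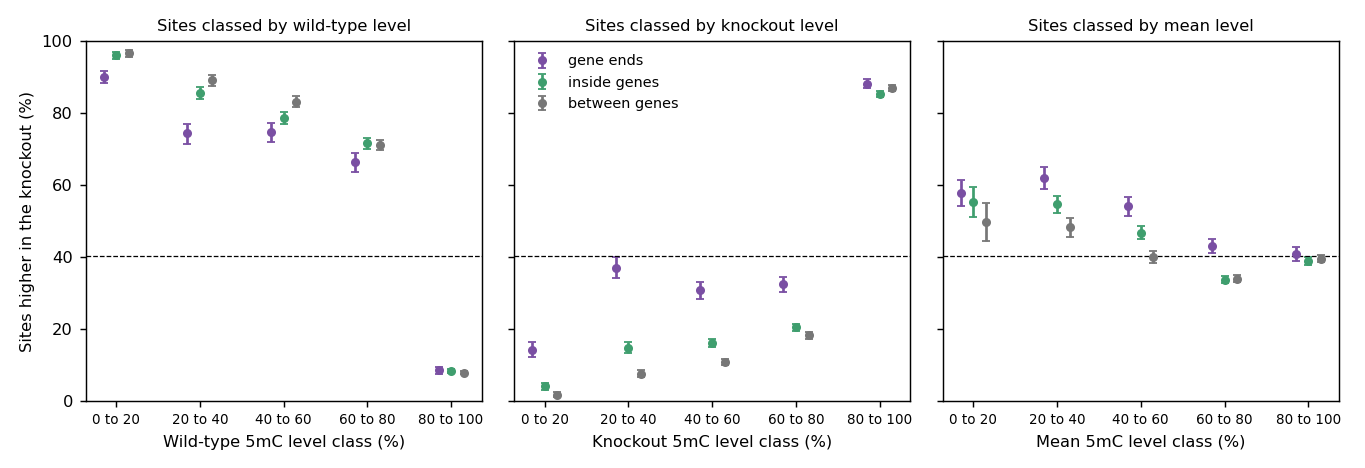
Share of listed 5mC sites higher in the knockout (percent; points with exact 95% binomial intervals) at gene ends, deeper inside genes and between genes, with sites classed by wild-type, knockout or mean level. The dashed line is the 40.3% of all listed sites. Gene ends lie under the space between genes in the classes from 0 to 80% on the left and over it in the same classes in the middle and right panels.

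Matched on a WT level below 80% the order was the opposite. Under 20% in wild type 90.1% of 1358 gene-end sites were higher against 96.8% of 1247 between genes, and at 20 to 40% the shares were 74.4% of 964 and 89.2% of 1767. Among sites with p under 0.001 in the authors' deposited table, the gap between gene ends and intergenic space was -0.21 points under 20%, -10.4 at 20 to 40%, -0.12 at 40 to 60% and 2.85 at 60 to 80%. Over all listed sites at 80% or more in wild type, the shares were 8.46% at gene ends and 7.77% between genes. This is a difference of 0.68 points with an approximate interval from -0.35 to 1.72. Matched on the knockout level, 37.0% of 1080 gene-end sites at 20 to 40% were higher against 7.42% of 2859 between genes. Over all listed sites below 80%, those of one level class therefore moved less often upward at gene ends when the class was fixed in wild type, and more often when it was fixed in the knockout. Gene-end sites also had smaller rises from low levels: under 20% in wild type the median rise was 34.8 points at gene ends and 49.8 points between genes.

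Strand-aware gene starts were available for 27025 genes, with none on chromosome 18, against 34614 genes in the gene table. Distances are to the nearest available start, so a site near a missing start counts as farther away. Within 1000 bp of the available starts higher sites were the larger share over both sides together. Of 707 sites within 250 bp of a start 54.2% were higher (interval 50.4 to 57.9%), of 648 from there to 500 bp 53.7%, and of 1239 from there to 1000 bp 53.3% (50.5 to 56.2%). Close sites mostly share a direction and were not counted once here, so these intervals treat linked sites as separate. The 707 sites include 18 higher sites of Vkorc1l1 alone. From 1000 to 2000 bp the share was 43.7% of 1799, and beyond 50000 bp 37.1% of 17363. Median WT levels rose over the same distances from 52.9% to 75% and 88.9%, while median knockout levels ran from 56.5% to 64.3% and 66.7%. Over both sides together the knockout median was above the WT median within 1000 bp of a start and below it farther out, but the sides differed. Within 250 bp, medians were 59.4% (WT) and 56.7% (knockout) upstream and 50% and 56% downstream, with 53.8% of 320 and 54.5% of 387 sites higher. From 500 to 1000 bp, medians were 67.3% and 62.5% upstream, where 48.4% of 508 sites were higher, and 48.3% and 56.2% downstream, where 56.8% of 731 were higher. The share of sites under 20% in wild type fell from 27.6% within 250 bp to 5.33% beyond 50000 bp.

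**Figure D4:**
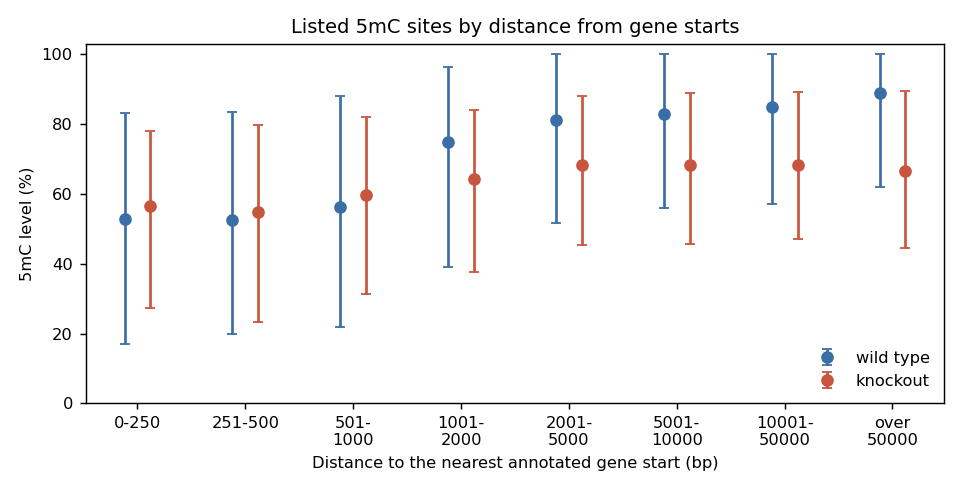
5mC level (percent, points are medians over listed sites, bars run from the lower to the upper quartile) in wild type and knockout by distance in bp to the nearest available gene start. Sites upstream and downstream are pooled; in the pooled values the knockout median is the higher of both up to 1000 bp and the lower of both beyond.

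Listing in promoter windows varied with CpG content. All 412 distinct listed sites inside the 32851 windows fell on the C of a CG dinucleotide of the GRCm38.p6 sequence, so the positions are on GRCm38. A listed site was found in 1.21% of all windows, in 2.19% of the 6074 windows with 5 to 9 CG dinucleotides and in 0.747% of the 8701 windows with 20 or more. Per 1000 CG dinucleotides there were 3.83 listed sites in windows with fewer than 5 and 0.346 in windows with 20 or more. In the CG-rich windows the 82 sites had median levels of 19.8% (WT) and 33.7% (knockout) and differed by a median of 24.005 points; in the CG-poorest windows the 96 sites had 75.04% and 66.2% and differed by 36.4 points. Of the 412 sites 214 were higher. The letters CG were counted on 1 strand, since the dinucleotide reads alike on both.

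Named genes were first taken from each level class and direction by the smallest deposited p, which favours well-covered sites. Among sites that rose from under 20%, Cdc5l, a splicing factor gene, had a WT level of 17.7% and a knockout level of 66.7% (chr17:45390334, outside the gene within 2000 bp; q = 0.0113 in the authors' deposited table). Kif6, a kinesin gene, was at 18.2% and 77.5% (chr17:49662696, q = 0.0152, authors' deposited table), and 43 of its 51 sites were higher. Both lie in the chromosome 17 stretch, as do Mslnl (29.6% and 85.3%, q = 0.00990) and the mitochondrial ribosomal protein gene Mrps10 (22.0% and 68.6%, q = 0.0154 in the authors' deposited table), which are named for rises from 20 to 40%. Ntrk3, a neurotrophin receptor gene, was named in both classes and held the smallest p of the sites under 20%. Its neighbouring sites, outside the gene within 2000 bp, were at 20.8% and 69.8% (q = 0.0129) and at 15.9% and 93.6% (q = 6.04e-10, both in the authors' deposited table). Of its 10 sites 6 were higher and 4 lower.

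Losses from low levels were small by necessity and carried larger p. Sptbn4, a spectrin gene, was at 12.7% and 0% (chr7:27364385, p = 0.000130 in the authors' deposited table), Kif19a at 14.9% and 0.870%, and Raet1e, which encodes a ligand of the natural killer receptor NKG2D, at 19.8% and 2.33%. A site of 27.3% and 6.54% at chr17:34970740 belonged to Hspa1a and lay near Hspa1l, both heat-shock protein 70 genes; p was 0.000145 in the authors' deposited table. Hspa1a and Hspa1b are near-identical copies, and the sources used here do not say how reads were placed between them. Gm3373, a gene model, was at 35.7% and 0%.

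Among sites that started between 40 and 80%, Ctnna2, a neuronal catenin gene, was at 56.5% and 87.8% (chr6:76951067, q = 0.0953 in the authors' deposited table), and 13 of its 14 sites were higher. Lrp1b, a lipoprotein receptor gene, was at 56.9% and 91.4%, with 7 of 16 sites higher. Tmem267 was at 54.1% and 84.6%. On the losing side Ablim1 was at 56.5% and 0% (chr19:57054142, q = 0.0890 in the authors' deposited table), with 30 of 37 sites lower, the guidance-cue gene Slit3 at 66.7% and 0% (chr11:35365770, q = 0.0600), Daglb, a diacylglycerol lipase gene, at 69.6% and 0%, and Zfp663 at 65.0% and 15.2%. Gm52481 on chromosome Y was at 43.8% and 12.2%, and 3830403N18Rik on chromosome X at 58.5% and 15.7%.

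Among sites that rose from 60 to 80%, Gpatch2 was at 61.7% and 98.2% (chr1:187336438, q = 0.0395 in the authors' deposited table). Dmd headed this class and the next, with 81.3% and 98.8% at chrX:83848199. Other rises from 80% or more were at Prkca, the protein kinase C alpha gene, with 81.0% and 100%, and Kcnip1, a potassium channel partner gene, with 83.3% and 99.0%; q was 1 at both in the authors' deposited table. Falls from 80% or more were headed by Rpgr (100% and 0%) and Sytl5 (96.2% and 3.85%), which lie within 4 Mb of Hdac6, and by Spg11 (100% and 51.1%); all 3, 9 and 8 listed sites of these genes were lower.

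Near gene ends, 291 of 21887 protein-coding genes held 3 or more sites. Of these genes, 84 had higher sites alone, 38 lower sites alone and 169 both. Over all genes, 48.0% of the 8178 gene-end sites were higher. Of adjacent listed sites 2 to 100 bp apart, 94.6% of pairs changed in the same direction. A gene with higher or lower sites alone can therefore hold a single locus. The gene counts were not repeated with close sites counted once. Vkorc1l1 had most in a single direction, 18 higher sites within 142 bp. Levels there ran from 3.12 to 21.1% in wild type (median 14.5%) and from 33.3 to 64.3% in the knockout (median 59.9%). Hspa1b had 11 higher sites, at 11.1 to 28.4% and 26.3 to 51.9%, and Oxct2a, a ketone-body enzyme gene, 11 at 4.92 to 78.6% and 25.8 to 98.3%. Tmed2, which encodes a cargo receptor of the early secretory pathway, showed a small and even rise: 10 of its 11 sites were at 0% in wild type and all lay between 10 and 14.4% in the knockout. Kcnk12, a potassium channel gene, had 6 sites at medians of 22.6% and 46.0%, and Mrps10 6 sites at 27.2% and 66.6%. The genotypes' ranges overlapped at Hspa1b and Oxct2a, and Hspa1b and Mrps10 lie in the chromosome 17 stretch.

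**Figure D5:**
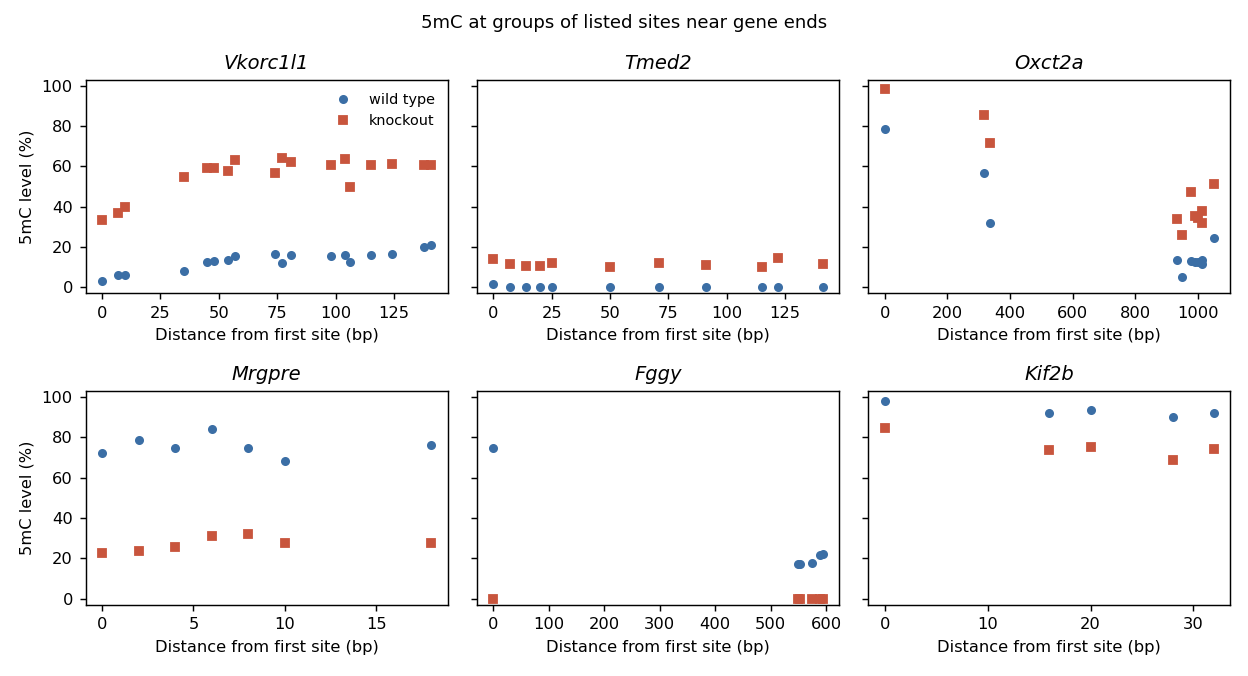
5mC level (percent) of each listed site near a gene end in wild type (circles) and knockout (squares), 1 library each, against distance in bp from the first listed site, for 3 genes with higher and 3 with lower sites. The ranges of the genotypes do not overlap at Vkorc1l1, Tmed2, Mrgpre and Kif2b, and at Fggy all 6 sites are at 0% in the knockout. Every listed site differs by at least 10 points by selection.

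Lower groups near gene ends were smaller. Mrgpre, a sensory receptor gene, had 7 sites within 19 bp with WT levels of 68.4 to 84.2% and knockout levels of 22.9 to 32.3%. Fggy had 6 sites, 5 at 17.1 to 22.2% and another at 75% in wild type, all at 0% in the knockout. Lamtor3-ps had 6 sites at medians of 20.1% and 1.89%, BC051142 5 at 19.5% and 1.96%, and Kif2b 5 at 92.3% and 74.0%. Gm52481 had 9 sites at medians of 64.1% and 31.4%. The genotypes' ranges overlapped at BC051142 and Gm52481, and BC051142 lies in the chromosome 17 stretch. Among these 12 genes, Mrps10 alone held a gene-end site with q under 0.05 (0.0154) in the authors' deposited table.

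Genes with most sites overall were long or complex. Snhg14, the long RNA gene of the imprinted Snrpn region, held 51 sites, 27 higher and 24 lower. Camta1, a calcium-responsive transcription factor gene, held 48 (22 higher, 26 lower), Cdh13, a cadherin gene, 45 (15 and 30), and St6galnac3, a sialyltransferase gene, 41 (33 and 8). Gm37013, Gm38666 and Gm38667, overlapping gene models of the protocadherin region, held 53, 49 and 46 and cover the same stretch of chromosome 18 in large part, so their sites are not separate counts. Per length, among genes with at least 10 sites, Oxct2a led with 189 sites per 100 kb and Hspa1b followed with 162, against 2.42 over all genes; the gene models Gm51701, Gm43305 and Gm33272 had 132, 122 and 99.1.

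Over all 34614 genes of the table, 42.3% held a listed site inside or within 2000 bp; 11.9% held higher sites alone, 18% lower sites alone and 12.4% both. Of protein-coding genes 47.1% held one. Long genes hold more sites, so counts for the 14 lists below stand beside the number of sites per 100 kb. Over all genes 42.0% of 30084 sites were higher and the median difference was -21.62 points.

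Genes that write, read or remove 5mC and make the TET co-substrate held 33 sites in 17 of 29 members, 15 of them higher (3.06 per 100 kb, median difference -19.35 points). Sites were higher alone in 6 members, lower alone in 6 and both in 5. Among the members without a site were Tet2 and the co-substrate genes Idh1, Idh2, Idh3a, Idh3b and Idh3g. The maintenance genes Dnmt1 and Uhrf1 had 3 and 1 sites, all lower. Dnmt3a, a de novo methyltransferase gene, had most, with 2 higher and 3 lower; at chr12:3839564 it was at 21.1% and 70.8%. Tet3 was at 28.6% and 86.7% (chr6:83360568, p = 0.000774, q = 1 in the authors' deposited table).

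Deacetylase, acetyltransferase and corepressor genes held 51 sites in 13 of 29 members, 19 higher (1.87 per 100 kb, median -25.81 points); 1 member had higher sites alone, 4 lower alone and 8 both. Hdac4 had 4 lower sites, the lowest p at chr1:92120802 (100% and 16.7%), and Hdac5 had 1 higher and 5 lower. Partners and substrates of HDAC6, with tubulin, dynein and aggresome genes, held 17 sites in 13 of 25 members, 4 of them higher (23.5%, interval 6.81 to 49.9%; 2.09 per 100 kb; median -30.77 points). Lower sites alone were found in 10 members, among them Tuba1b, an alpha-tubulin gene (100% and 80.5%), Mapt, which encodes the microtubule protein tau (65.2% and 0%), and Prdx1, a peroxiredoxin gene (100% and 68.2%). Cyld, a deubiquitinase gene, had 2 higher sites (36.4% and 100% at chr8:88739451). These 17 sites had a median WT level of 95.4%, against 81.8% over all genes. Where the mean of both levels was at least 60%, 3 of 13 (23.1%, interval 5.04 to 53.8%) were higher. The interval holds the 37.7% over all genes.

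Stem cell identity genes held 163 sites in 33 of 40 members, 83 higher (50.9%, interval 43.0 to 58.8%; 3.68 per 100 kb; median 16.19 points). Higher alone were 9 members, lower alone 6 and both 18. Prdm16, a transcription factor gene of stem cell maintenance, held 29 sites, 17 higher; Etv6, an ETS repressor gene, 14 in each direction, with 13.3% and 65.0% at chr6:134167197; and Msi2, an RNA-binding protein gene, 10 higher and 7 lower. Runx1 was at 43.8% and 100% at chr16:92649350, and Ikzf1, the Ikaros gene, at 100% and 45.5% at chr11:11735522. When sites at most 100 bp apart counted once, 71 of 148 loci were higher (48.0%, interval 39.7 to 56.3%). The interval holds the 41.3% of loci over all genes.

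Lineage genes showed both directions. Of 30 myeloid genes 14 held 18 sites, 9 higher; Elane, the neutrophil elastase gene, was at 98.1% and 74.4%, Ltf, the lactoferrin gene, at 61.9% and 100%, and Csf2rb, a cytokine receptor gene, at 78.6% and 15.4%. Of 30 erythroid and megakaryocyte genes 14 held 64 sites, 25 higher; 11 of the 14 had both directions. Nfia, a transcription factor gene, had 3 higher and 5 lower, Itgb3, the platelet integrin gene, was at 100% and 40%, and Ank1, the erythrocyte ankyrin gene, at 76.3% and 100%. Of 32 lymphoid genes 17 held 60 sites, 28 higher; Il2ra had 3 higher sites (16.7% and 81.8% at chr2:11687206), Cd3e 1 higher and 3 lower (100% and 48.2% at chr9:45007404), and Bcl11b, a T-cell transcription factor gene, 4 in each direction. Ebf1, a B-cell factor gene, held most, 5 higher and 6 lower. Sites per 100 kb were 3.00, 3.54 and 4.13 in these lists, and median differences 1.95, -25.19 and -21.11 points.

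Marrow stroma, endothelium and bone genes held 44 sites in 12 of 22 members, 25 higher (3.604 per 100 kb; median 18.37 points). Runx2, an osteoblast factor gene in the chromosome 17 stretch, held 18 of them, 14 higher; without it 11 of 26 (42.3%) were higher. Pecam1, an endothelial adhesion gene, had 6 lower sites. A part of these cell types in the differences was not tested. Myeloid leukaemia genes held 27 sites in 13 of 30 members, 9 higher (1.17 per 100 kb; median -28.57 points); Cux1 held 2 higher and 4 lower and was at 52.9% and 0% at chr5:136556590, and Setbp1 had 3 lower sites, with 96.7% and 60% at the smallest p.

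Cell cycle and quiescence genes held 44 sites in 14 of 33 members, 26 higher (59.1%, interval 43.2 to 73.7%; 3.63 per 100 kb; median 23.14 points). With close sites counted once, 23 of 41 loci (56.1%, interval 39.7 to 71.5%) were higher. Ccnd3, in the chromosome 17 stretch, had 10 of 11 sites higher; without it 16 of 33 sites (48.5%) were higher and the median was -15.79 points. Of the others, Cdk6, a G1 kinase gene, had 7 in each direction (52.6% and 95.7% at chr5:3453975), and E2f2 a single site at 8.70% and 63.2% (chr4:136170597). Foxo3, a quiescence factor gene, had 1 higher and 4 lower. Wnt, Notch and TGF-beta genes held 87 sites in 28 of 38 members, 37 higher (3.82 per 100 kb; median -27.97 points). Tcf7l2, a Wnt effector gene, had 9 lower sites and none higher, with 60.3% and 26.7% at chr19:55770638 (p = 8.51e-06, q = 0.204 in the authors' deposited table). Notch2 had 4 higher and 8 lower, Wnt3a 3 lower, and Axin1, in the chromosome 17 stretch, 2 higher (18.2% and 90%).

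Imprinted genes held 121 sites in 31 of 42 members found, 72 higher (59.5%; 4.97 per 100 kb; median 22.37 points), at a median WT level of 50%. Kcnq1 had 26 sites, 22 higher, most of them shared with Kcnq1ot1; without both genes 50 of 95 sites (52.6%) were higher. With close sites counted once, 40 of 86 loci (46.5%, interval 35.7 to 57.6%) were higher over the whole list. Without both genes the share was 45.6% (interval 34.3 to 57.2%). Both intervals hold the 41.3% over all genes. Gnas, a G-protein gene, had 12 higher and 1 lower. Airn, an imprinted antisense RNA gene on chromosome 17, had 5 higher and 3 lower. Homeobox and other developmental regulators that Polycomb marks in stem cells held 83 sites in 30 of 50 members, 55 higher (66.3%, interval 55.1 to 76.3%; median 27.79 points). They had 7.61 sites per 100 kb, a median WT level of 26.7% and 45.8% of sites under 20% in wild type, against 9.85% over all genes. Higher sites alone were found in 14 members, lower alone in 5 and both in 11. Hoxb3 had 5 higher sites (4.76% and 55.6% at chr11:96317807), Pax7 4 higher and 2 lower, and Tbx5 5 higher and 6 lower.

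Developmental regulators were then split by the mean of both levels. Where the mean of both levels was under 60%, 38 of 55 sites (69.1%, interval 55.2 to 80.9%) were higher, against 52.9% over all genes. At 60% or more, 17 of 28 (60.7%, interval 40.6 to 78.5%) were higher, against 37.7%. With close sites counted once, 49 of 76 loci (64.5%, interval 52.7 to 75.1%) were higher. Of the 50 developmental regulators 23 (46%) held a gene-end site, against 21.6% over all genes. The part of gene context in their direction was not tested. For imprinted genes the shares were 78.3% of 60 sites under 60% (interval 65.8 to 87.9%) and 41.0% of 61 above (28.6 to 54.3%). A few genes carried much of the first share. Without Kcnq1 and Kcnq1ot1 27 of 38 sites under 60% were higher (71.1%, interval 54.1 to 84.6%), and without Gnas as well 15 of 26. Very long neuronal genes, listed taken for their length, had sites in all 26 members and both directions in each, with 399 sites, 41.1% higher, 1.02 per 100 kb and a median of -26.32 points.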

How the data were processed

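The authors' deposited comparison gives, per the file headers, 1 position per CpG with a wild-type and a knockout level as a fraction, their difference (a signed score), and the authors' deposited p-value and q-value. The sources used here name no aligner, caller, test, coverage filter or conversion rate. Depth per site is unknown, so no interval is given for a single level. The submitters' processing notes name GRCm39; positions fit GRCm38, as the promoter windows show. Differences were recomputed and equalled the authors' deposited ones within 0.0001. The number of tested cytosines is the value that made 441 of 586 ranks (q under 1) whole within 0.001. Genes were the 21887 protein-coding and 12727 long non-coding entries of RefSeq GRCm38.p6; 457 of 458 list entries matched. A class holds its lower edge. Genes were named by level class, list, gene ends, number of sites and promoter windows, by smallest deposited p or most sites; loci named later are marked, and a few genes that the rule names are not reported here. Members and lists were chosen with earlier results of these data known. The functions were tested on simulated data. Software was Python 3.11.15, pandas 2.3.3, numpy 2.4.6, scipy 1.17.1 and matplotlib 3.10.9.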

Additional observations from a re-analysis of the deposited data

How the results depend on the processing

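No paired analysis was possible because each genotype has 1 library and no test was made. No listed sites lay 1 bp apart, so merging them changed nothing. Classes on the mean level, in place of the wild-type level, moved the shares of higher sites to 55.3% (0 to 20%), 45.1% (40 to 60%, reversed), 35.1% (60 to 80%, reversed) and 39.4% (80 to 100%). With deposited p under 0.001 the shares were 97.1% under 20% and 4.06% at 80% or more, without levels of 0 or 100% they were 97.2% and 4.78%, and with differences of at least 25 points they were 100% and 0% by arithmetic. The gene-end minus intergenic gap at a wild-type level of 20 to 40% was -10.4 points with p under 0.001, -8.02 with at least 25 points and -19.9 with ends within 500 bp. With p under 0.001 it shrank to -0.21 under 20% and -0.12 at 40 to 60%, and reversed to 2.85 at 60 to 80%; the mean-level gap under 20% rose to 30.2. At a wild-type level of 80% or more the gap reversed to -1.08 with p under 0.001, -1.38 without levels of 0 or 100% and -0.53 within 500 bp, and was 1.79 with protein-coding genes. On the mean level, leaving out 0 and 100% gave 9.69 points at 20 to 40% and reversed 80% or more to -0.75. The median rise was 41.8 points with p under 0.001, 39.5 with at least 25 points, 34.9 without 0 and 100%, 33.6 without the Hdac6 and chromosome 17 stretches and 34.5 with close sites counted once; the median loss was -47.4, -42.2 and -38.3 under the first 3 and -37.4 on autosomes. Same-direction pairs within 100 bp reached 98.7%, 95.7% and 96.1% under those 3 settings, and pairs beyond 10000 bp 55.0%, 54.6% and 52.2%. List members with a site fell to 77 with p under 0.001. Of 207 alternative values 135 stayed close to the main value, 65 moved farther and 7 reversed, and the cause was not tested. Closeness was judged by the interval of the main value. For counts of list members, which have no interval, it was judged by a fixed ratio to the main count, and these counts could not reverse. The values with sites 1 bp apart merged are among the 135 and were bound to equal the main value. Mean-level classes for gene context, close sites counted once and lists without named genes were chosen after seeing the data. Depth per site is unknown, and 1 library per genotype gives no spread between animals.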

Other observations

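The authors' 5hmC comparison lists 71864 sites, and 12608 positions are in both lists, 23.7% of the 5mC sites and 17.5% of the 5hmC sites. The marks changed in opposite directions at 12594 of these positions: 5mC was lower and 5hmC higher in the knockout at 9015, and the reverse held at 3579. The median difference was -33.3 points for 5mC and 30.6 points for 5hmC, while the sum of both levels changed by a median of 0 points (quartiles -4.18 and 3.45). The sum was at most 100% at 97.2% of positions in wild type and 94.1% in the knockout. The sources used here do not say which libraries entered each level; where 5hmC is taken as a difference from the same bisulfite level, opposite signs follow from the calculation. Whether the levels were made that way was not tested. Of the shared positions 28.5% were higher in 5mC, against 44.0% of the 40598 5mC sites that are not in the 5hmC list.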
